A study of Mus musculus with 6 samples.

Results

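Bipolar cells are the interneurons that carry the photoreceptor signal to the inner retina. The 10 genes described here mark ON bipolar cells, OFF bipolar cells or both. They are Grm6, Trpm1, Nyx, Gng13, Rgs11, Prkca, Pcp2, Grik1, Lrtm1 and Cabp5. They were read from all non-control probes that carry a RefSeq transcript of 1 of these genes, which gave 14 probes of 39429 on the array. Each gene was represented by its brightest probe, and the other probes of Trpm1, Prkca and Cabp5 are given beside it. Of 24436 features tested, 15956 carried a gene symbol and the others were single probes without a symbol. Shares of all genes below are shares of all these features. All 14 probes were well above background in both channels on all 6 arrays, so no member was lost to the filter on dim probes, and none of their spots was flagged or saturated.

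In the dark, photoreceptors release glutamate. ON bipolar cells sense it with the metabotropic receptor mGluR6, the product of Grm6, which through the G protein Go keeps the cation channel TRPM1 closed. Light lowers glutamate, the G protein is switched off with the help of RGS proteins, and TRPM1 opens. OFF bipolar cells instead use ionotropic AMPA and kainate receptors, which glutamate opens directly.

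The retinas came from adult male C57BL/6 mice, 12 per group. The vitreous of the right eye had received 1 µM of SH-42 or of SH-80, code names that the labels do not explain, or phosphate-buffered saline as the control. After 7 days retinas were collected in pools of 4, and each of 6 dual-colour arrays, 3 per compound, set RNA labelled with a compound in Cy3 against RNA labelled control in Cy5. All groups share the intravitreal injection, and no uninjected retina was analysed here. Whether arrays had separate control pools is not stated, and 12 mice in pools of 4 give 3 pools, so both comparisons may share control RNA. All ratios are log2 of Cy3 over Cy5, that is, compound over control by the labels. The deposited value table runs the other way, no array had the dyes exchanged, and every sign would turn if Cy5 held the treated RNA. Without such an exchange, a dye bias of a gene cannot be told apart from an effect of a compound against control.

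SH-42 replicate 1 stood apart from the rest. Across all genes, Pearson's r between its log ratios and those of the 5 remaining arrays was -0.158 to 0.162, whereas the other 10 pairs of arrays lay between 0.471 and 0.866. Results are therefore given with and without it. In bulk retina, fewer bipolar cells and less RNA per bipolar cell cannot be told apart.

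Promoter sequences are shown for 4 members whose behaviour across arrays is contrasted below. Grm6 and Trpm1 are the receptor and the channel of the ON pathway. Lrtm1 had a positive ratio on every array after loess normalization, and Cabp5 was the member that moved least by its brightest probe. The windows reach from upstream of the annotated start to shortly after it, from RefSeq on GRCm38.p6, read 5′ to 3′ on the strand of the gene. Of the 10 genes, 8 had at least 1 window in the table, and Rgs11 and Grik1 had none. Capitals mark TAATCC or its reverse complement GGATTA, the core letters recognised by CRX and OTX2, homeodomain factors of photoreceptors and bipolar cells.
Grm6 (chr11:50850435-50850734, plus strand): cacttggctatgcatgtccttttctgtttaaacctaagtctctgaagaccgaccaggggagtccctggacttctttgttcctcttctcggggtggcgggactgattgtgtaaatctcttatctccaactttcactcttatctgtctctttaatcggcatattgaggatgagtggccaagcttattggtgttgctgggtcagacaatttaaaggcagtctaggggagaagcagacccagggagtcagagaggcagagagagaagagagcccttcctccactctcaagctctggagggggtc
Trpm1 (chr7:64153585-64153884, plus strand): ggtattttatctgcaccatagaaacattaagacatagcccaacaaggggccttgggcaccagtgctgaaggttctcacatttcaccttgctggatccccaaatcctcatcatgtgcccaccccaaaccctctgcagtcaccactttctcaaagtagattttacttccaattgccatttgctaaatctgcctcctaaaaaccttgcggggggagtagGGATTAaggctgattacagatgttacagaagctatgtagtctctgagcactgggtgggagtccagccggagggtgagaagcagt
Lrtm1 (chr14:29017958-29018257, plus strand): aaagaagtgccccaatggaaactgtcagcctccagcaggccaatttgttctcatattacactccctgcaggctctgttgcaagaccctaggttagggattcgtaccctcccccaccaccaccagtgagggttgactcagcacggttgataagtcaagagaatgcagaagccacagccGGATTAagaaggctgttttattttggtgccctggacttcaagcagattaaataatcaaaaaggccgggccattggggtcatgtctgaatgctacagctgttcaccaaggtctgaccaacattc
Cabp5 (chr7:13397905-13398204, plus strand): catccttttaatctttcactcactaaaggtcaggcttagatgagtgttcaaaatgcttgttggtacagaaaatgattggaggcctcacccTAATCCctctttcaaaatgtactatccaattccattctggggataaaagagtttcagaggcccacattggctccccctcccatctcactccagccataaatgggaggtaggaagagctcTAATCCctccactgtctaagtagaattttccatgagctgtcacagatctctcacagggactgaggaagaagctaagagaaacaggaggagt

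The core was present in 3 of the 13 windows of these genes, 1 each of Trpm1, Lrtm1 and Cabp5, the last with 2 matches. A second Trpm1 window (chr7:64185209-64185508, plus strand) had no match and is not printed. Among 32817 windows of the same length, 7.06% held it on either strand. A second motif, TAATTA, was also searched. It was in 1 of the 13 windows, of Pcp2, against 5.3% of all windows. The 13 windows are not all separate, since those of Pcp2 overlap in part. A match is a description of the letters in the window.

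Grm6, Trpm1 and Nyx each had their highest ratio on SH-42 replicate 1 and their lowest on SH-80 replicate 3. For Grm6, whose loss abolishes the ON response, the log ratio was 1.26, -0.14 and -0.06 on SH-42 replicates 1 to 3 and -0.18, -0.15 and -0.57 on SH-80 replicates 1 to 3. The first array was thus far above the other 5. The SH-42 arrays all lay above the SH-80 arrays, but only by 0.01 where the closest arrays met (-0.142 and -0.148). For Trpm1, the cation channel closed by the mGluR6 cascade, the brightest probe lay at 1.18, -0.14 and -0.02 on SH-42 replicates 1 to 3 and at -0.12, -0.15 and -0.39 on SH-80 replicates 1 to 3. Its groups overlapped, since SH-42 replicate 2 was below SH-80 replicate 1. Nyx encodes nyctalopin, a leucine-rich repeat protein needed to place TRPM1 at the dendritic tips. Its ratio was 0.78, -0.04 and 0.06 on the SH-42 arrays and -0.11, -0.11 and -0.38 on the SH-80 arrays, with no overlap between the groups.

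The G protein and its regulator differed from each other. Gng13, the G protein γ subunit of ON bipolar cells, had the highest single value of the 10 genes, 1.55 on SH-42 replicate 1. Its other 5 arrays stayed close to 0, at 0.13 and 0.01 for SH-42 and at -0.09, 0.01 and -0.14 for SH-80, and the groups overlapped. Rgs11, which speeds up the switching off of Go, had 0.54, -0.12 and -0.11 on the SH-42 arrays and -0.35, -0.39 and -0.64 on the SH-80 arrays. Its SH-80 values were the lowest of the 10 genes, on average, and did not overlap with those of SH-42.

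Prkca encodes protein kinase C alpha, the usual marker of rod bipolar cells. Its brightest probe lay at 0.59, -0.16 and -0.18 on the SH-42 arrays and at -0.28, -0.29 and -0.56 on the SH-80 arrays, again without overlap. Pcp2, a modulator of G protein signalling found in ON bipolar cells and in Purkinje cells, lay at 1.13, 0.01 and -0.15 on the SH-42 arrays and at -0.19, -0.12 and -0.47 on the SH-80 arrays. Here SH-42 replicate 3 fell among the SH-80 arrays.

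Grik1 and Lrtm1 were the members with a positive ratio on every array after loess normalization, 2 of 10. The share of all genes positive on every array is not given here, so this describes these genes only. For Grik1, a kainate receptor subunit of OFF bipolar cells, the ratio was 1.06, 0.05 and 0.47 for SH-42 and 0.18, 0.49 and 0.35 for SH-80, so the groups overlapped widely. Its signal was low, with a Cy5 intensity between 171.5 and 341.5. For Lrtm1, a leucine-rich repeat membrane protein, it was 1.49, 0.40 and 0.22 for SH-42 and 0.19, 0.24 and 0.15 for SH-80. Cabp5, a calcium-binding protein of rod bipolar cells and some cone bipolar types, moved least, with 0.08, -0.09 and 0.00 for SH-42 and 0.07, 0.07 and -0.24 for SH-80.

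**Figure D1:**
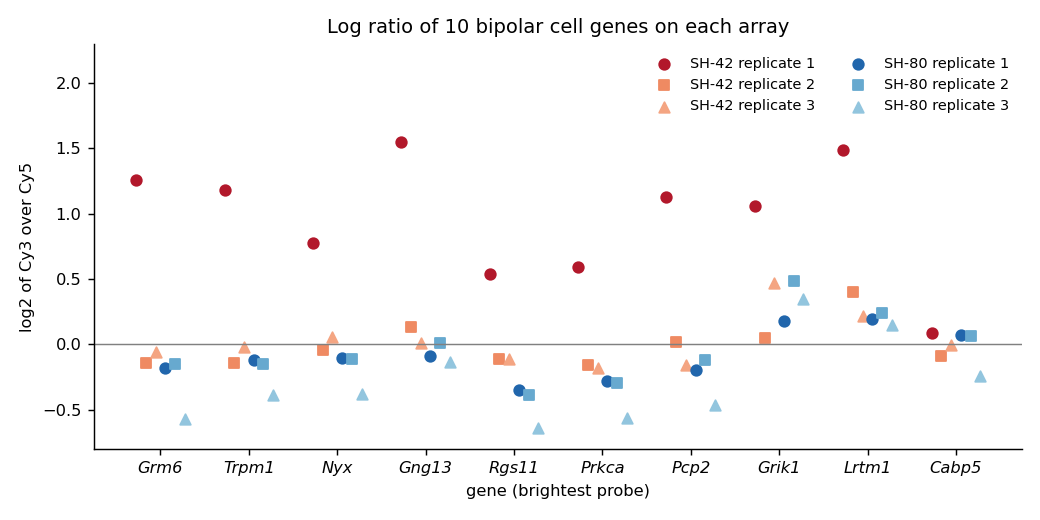
Log2 of Cy3 over Cy5 (vertical axis) for the brightest probe of each of the 10 genes (horizontal axis), with 1 point per array. SH-42 replicate 1 is the highest point of every gene, from 0.08 for Cabp5 to 1.55 for Gng13.

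The order of the arrays was shared by most of the set. SH-42 replicate 1 had the highest ratio of the 6 arrays for 10 of 10 genes, which was the case for 36.7% of all genes. On that array 6 of the 10 genes exceeded 1, against 1.88% of all genes, and 9 exceeded 0.5, against 8.44%. SH-80 replicate 3 had the lowest ratio for 9 of 10 genes (23.1% of all genes). All 3 SH-80 arrays were below 0 for 6 of 10 genes, against 38.8% of all genes. The SH-42 arrays all lay above the SH-80 arrays for 4 genes, Grm6, Nyx, Rgs11 and Prkca, against 8.02% of all genes.

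The members varied between arrays mainly in the Cy5 channel. Over the 6 arrays the normalized log2 level of a member spanned 0.0493 to 0.205 in Cy3, labelled with the compounds, and 0.323 to 1.74 in Cy5, labelled control. Grm6 lay between 12.89 and 13.00 in Cy3 on all arrays. Its Cy5 level was 11.74 on SH-42 replicate 1 and between 12.98 and 13.48 on the others. Gng13 spanned 14.78 to 14.86 in Cy3 and 13.27 to 14.93 in Cy5 on 5 arrays, with the highest Cy5 level on SH-80 replicate 3. The SD between arrays was larger in Cy5 for 10 of 10 members, as for 78.5% of all genes. The median SD of the members was 0.0383 in Cy3 and 0.486 in Cy5, and over all genes it was 0.0683 and 0.141. Without SH-42 replicate 1 the members' median Cy5 SD was 0.148, against 0.0962 for all genes.

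The lowest Cy5 level of every member was on SH-42 replicate 1, below the next array by 0.00635 for Cabp5 and by up to 1.38 for Gng13. The highest was on SH-80 replicate 3 for 9 members. Grik1 was the exception, with 8.37 on both SH-42 replicate 2 and SH-80 replicate 1 and 8.28 on SH-80 replicate 3. The share of all genes with such Cy5 orders is not given here. The low Cy5 level on SH-42 replicate 1 was not particular to the members. The median Cy5 level of rod, cone, amacrine, horizontal and ganglion cell genes was also lowest on that array. For Müller glia, microglia, skeletal muscle and pigment epithelium genes it was highest there.

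**Figure D2:**
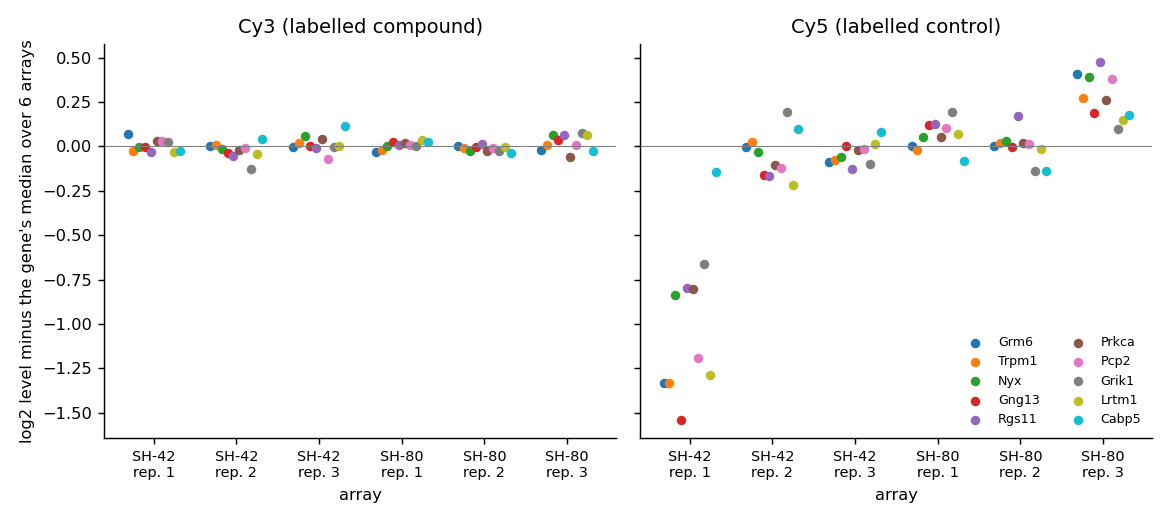
Normalized log2 level of each of the 10 genes minus its own median over the 6 arrays (vertical axis), by array (horizontal axis), in Cy3 (left) and Cy5 (right), with 1 point per gene and array. Cy3 levels span at most 0.205, while Cy5 levels are low on SH-42 replicate 1 and mostly highest on SH-80 replicate 3.

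The other probes of 3 genes differed from the brightest in part. The second Cabp5 probe, of the same transcript, lay at 1.05 on SH-42 replicate 1, where the brightest lay at 0.08, and at 0.08, 0.14, -0.09, -0.07 and -0.17 on the other arrays. By that probe Cabp5 thus resembled the other members. The second Prkca probe lay at 0.30 on SH-42 replicate 1 and between -0.21 and 0.01 on the rest.

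Trpm1 had 2 further probes. One followed the brightest, with 0.81 on SH-42 replicate 1 and between -0.43 and -0.04 elsewhere. The other carries another RefSeq transcript of the gene, NM_018752, and did not. It lay at -0.18, -0.42 and -1.20 on the SH-42 arrays and at 0.08, -1.76 and -0.08 on the SH-80 arrays. Its Cy5 level was highest on SH-80 replicate 2 (11.24) and SH-42 replicate 3 (10.66) and between 9.49 and 10.01 on the others, whereas its Cy3 level stayed between 9.46 and 9.59. None of these 4 probes passed the threshold in any comparison when every probe was tested as a feature of its own (limma, lowest adjusted p = 0.227).

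**Figure D3:**
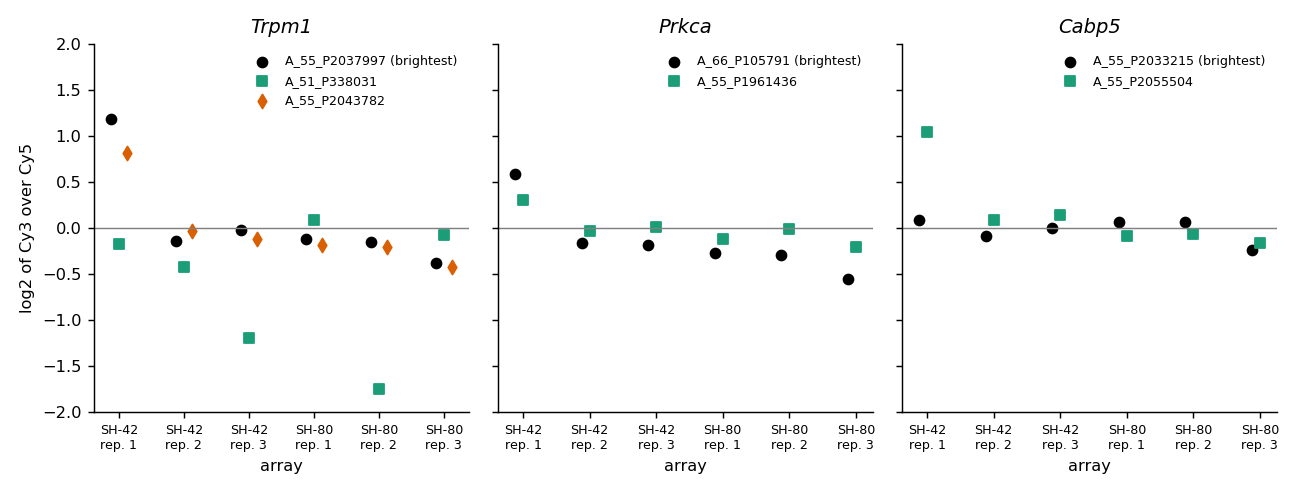
Log2 of Cy3 over Cy5 (vertical axis) by array (horizontal axis) for each probe of Trpm1, Prkca and Cabp5. The second Cabp5 probe reaches 1.05 on SH-42 replicate 1, and 1 Trpm1 probe falls to -1.20 and -1.76 on SH-42 replicate 3 and SH-80 replicate 2.

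On the SH-42 arrays, which by the labels set SH-42 against saline, the members leaned to Cy3 but none passed. Their estimates ran from -0.00 for Cabp5 to 0.70 for Lrtm1, with a median of 0.334, and 9 of 10 were positive. Over all genes the median was -0.0334 and 43.03% were positive. Lrtm1 lay at 0.70 ± 0.23 (log2 ± SE, n = 3, limma adjusted p = 0.163), Gng13 at 0.56 ± 0.28 (adjusted p = 0.275) and Grik1 at 0.53 ± 0.18 (adjusted p = 0.17). Grm6 lay at 0.35 ± 0.27 and Pcp2 at 0.33 ± 0.24. Benjamini-Hochberg adjustment over all genes at 0.05 called 0 of 10 members, against 0.585% of all genes. At an unadjusted p under 0.05, Grik1 and Lrtm1 passed, 2 of 10, against 23.4% of all genes.

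The positive lean rested on 1 array. Without SH-42 replicate 1 the median of the members was -0.0581 with 4 of 10 positive, and 0 of 10 were called, against 1.76% of all genes. Grm6 then lay at -0.10, Trpm1 at -0.08 and Gng13 at 0.07. Lrtm1 stayed positive at 0.31 ± 0.0674 (limma adjusted p = 0.0793) and Grik1 at 0.26 ± 0.118 (adjusted p = 0.231). The lean also depended on the dye normalization. With arrays centred on their median and no loess, the median of the members was -0.182 with 2 of 10 positive, while that of all genes was -0.245, and 1 of 10 members passed, Cabp5 (-0.63, lower), against 37.8% of all genes. Lrtm1 then lay at 0.12 and Grik1 at 0.455. SH-42 replicate 1 still stood out, with a member median of 0.724 against -0.146 for all genes. On SH-42 replicate 2 these medians were -1.03 and -0.421. Scale normalization after loess lowered the median of the members to 0.122, with 7 of 10 positive.

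On the SH-80 arrays, which by the labels set SH-80 against saline, most members lay lower in Cy3. Of 10 genes, 8 were negative and 2 positive, with a median of -0.21. Over all genes 44.47% were positive and the median was -0.0301. Rgs11 lay at -0.46 ± 0.141 (log2 ± SE, n = 3, limma adjusted p = 0.0726), Prkca at -0.38 ± 0.159 (adjusted p = 0.146) and Grm6 at -0.30 ± 0.271 (adjusted p = 0.465). Grik1 (0.34 ± 0.179) and Lrtm1 (0.20 ± 0.228) lay on the other side. The test called 0 of 10 members, against 14.7% of all genes, and at an unadjusted p under 0.05 only Rgs11 passed, against 35.6% of all genes.

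Both comparisons take their spread from all 6 arrays, so SH-42 replicate 1 also widens the errors for SH-80. Without it, 7 of 10 members passed for SH-80, against 38.8% of all genes. Of all genes, 22.7% passed as lower and 16.1% as higher. The members lower in Cy3 were Rgs11 (-0.46 ± 0.0681, limma adjusted p = 0.0089), Prkca (-0.38 ± 0.0682, adjusted p = 0.012), Grm6 (-0.30 ± 0.0898, adjusted p = 0.0419), Pcp2 (-0.26 ± 0.0788, adjusted p = 0.0434) and Trpm1 (-0.22 ± 0.0671, adjusted p = 0.044). Those higher were Lrtm1 (0.20 ± 0.055, adjusted p = 0.0354) and Grik1 (0.34 ± 0.0962, adjusted p = 0.0364). Both had a positive ratio on all 6 arrays, and an effect of SH-80 cannot be told apart from a dye bias of these genes. Nyx, Gng13 and Cabp5 did not pass. With arrays centred and no loess, Rgs11 alone passed at -0.77 (15.2% of all genes). The median of the members was then -0.487 with 1 of 10 positive, and that of all genes was -0.147. Lrtm1 turned to -0.15 in that setting. On the SH-80 arrays alone 5 of 10 passed, against 38.1% of all genes. These were Rgs11, Prkca, Pcp2, Grik1 and Lrtm1. Grm6 and Trpm1 each passed in 1 of 20 settings, namely without SH-42 replicate 1. Slide as a fixed block turned the median of the members to 0.0299, with 6 of 10 positive and 0 called. No SH-80 array was on the slide of SH-42 replicates 1 and 2. The slide term was thus estimated from the SH-42 arrays alone, and the shift of the SH-80 estimates was carried over from them.

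By the labels, SH-42 minus SH-80 compares both compounds, each against its control channel, at the same dose and day. It is not touched by a dye bias that all arrays share. All 10 estimates were positive (9 with scale normalization between arrays, and 9 with centring in place of loess), against 53.45% of all genes. The median was 0.534, against 0.0147 over all genes. Other retinal neurons leaned the same way. Of their genes, 10 of 10 rod, 9 of 9 amacrine, 9 of 9 ganglion, 5 of 5 horizontal and 7 of 8 cone cell genes were positive. Their medians were 0.318, 0.446, 0.415, 0.3 and 0.159. For Müller glia 2 of 9 genes were positive and for microglia 0 of 9. Grm6 differed by 0.65 ± 0.383 (log2 ± SE, 95% interval -0.274 to 1.58), Gng13 by 0.63 ± 0.4 and Pcp2 by 0.59 ± 0.338. For Rgs11 the difference was 0.56 ± 0.199 (95% interval 0.0823 to 1.05, limma adjusted p = 0.69), and it was the only member past an unadjusted p under 0.05, as 3.9% of all genes were. Adjusted, 0 of 10 members and 0% of all genes passed (limma, 954 genes at an unadjusted p under 0.05). The intervals are wide, so a miss does not show that the compounds act alike. The channel labelled with the compounds hardly differed between arrays. The members' median level lay between 13.66 and 13.72 in Cy3, and between 12.59 and 14.01 in Cy5, labelled control. By the labels, the members' difference between the compounds thus lay mainly in the control channel. What made the Cy5 levels differ was not tested. SH-42 replicates 1 and 2 were also on a slide without SH-80 arrays.

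Without SH-42 replicate 1 the median difference was 0.166, with 8 of 10 positive. Grm6 then differed by 0.20 (95% interval -0.146 to 0.544), Rgs11 by 0.35 (0.0857 to 0.609) and Grik1 by -0.08 (-0.447 to 0.291). The 4 arrays of the slide that holds both compounds have SH-42 replicate 3 alone against the SH-80 arrays. There all 10 differences were positive, from 0.0246 for Lrtm1 to 0.35 for Rgs11, with a median of 0.165, and the lone array is assumed to vary like the others.

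**Figure D4:**
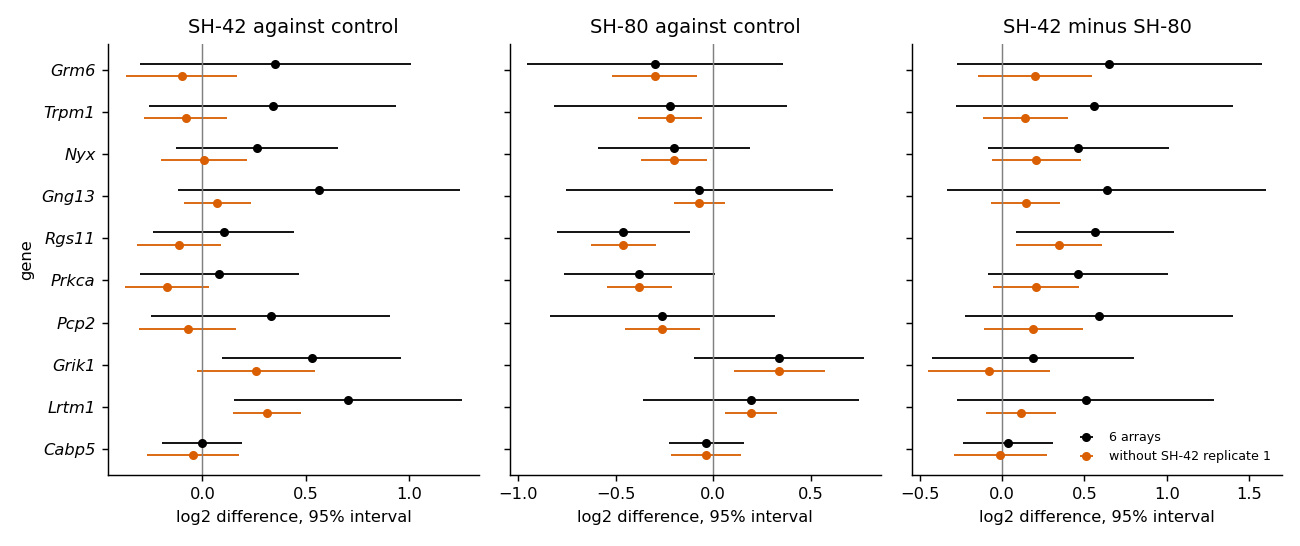
Log2 difference with its 95% interval (horizontal axis) for each gene (vertical axis) in the 3 comparisons, from all 6 arrays (black) and without SH-42 replicate 1 (orange). Leaving that array out moves the SH-42 estimates towards 0 or below and narrows the SH-80 intervals around the same values.

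Other genes of the pathway were mostly high on SH-42 replicate 1 too. Of the mGluR6 cascade partners, 7 of 8 listed genes were tested and Lrit3 was not. Their median was 0.894 on SH-42 replicate 1, with 5 of 7 positive, and between -0.133 and -0.0417 on the other arrays. The lowest on SH-42 replicate 1 was Gnb3, a G protein β subunit of ON bipolar cells and cones, named after its values were seen. It lay at -0.89 there, at -0.34 and 0.39 on SH-42 replicates 2 and 3, and at -0.06, 0.08 and -0.13 for SH-80. Elfn1, a synaptic adhesion protein of rods that binds mGluR6 across the synapse, passed as lower for SH-80 at -0.32 ± 0.0699 (log2 ± SE, n = 3, limma adjusted p = 0.0371), 1 of 7 tested, against 14.7% of all genes. It lay at -0.02, -0.04 and -0.29 on the SH-42 arrays and at -0.31, -0.27 and -0.38 on the SH-80 arrays, and so, like Gnb3, did not share the high ratio on SH-42 replicate 1. With any 1 SH-80 array left out, no gene passed for SH-80 (limma, 4740 to 6028 at an unadjusted p under 0.05). Gpr179, an orphan receptor that anchors RGS proteins at the dendritic tips, followed Grm6, with 0.92 on SH-42 replicate 1 and -0.18, -0.26 and -0.45 for SH-80. Gnb5, the G protein β subunit bound by RGS11, lay at 0.80 on that array and at 0.43 ± 0.148 for SH-42. Rgs9bp, a membrane anchor of RGS proteins, lay at 0.93 there and at 0.38 ± 0.17 for SH-42. No cascade partner passed for SH-42 or for SH-42 minus SH-80.

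All 13 listed transcription factors of bipolar cells were tested, with a median of 0.914 on SH-42 replicate 1 and between -0.08 and 0.0866 on the rest, and none passed. Bhlhe22, needed for some cone bipolar and amacrine types, lay at 1.35 on that array and at 0.59 ± 0.223 for SH-42, and Bhlhe23, needed for rod bipolar cells, at 0.93 and 0.39 ± 0.166. Vsx1, of cone bipolar cells, lay at 1.096 and 0.45 ± 0.189. Of 15 other bipolar markers, 14 were tested and none passed, with a median of 1.07 on SH-42 replicate 1 and between -0.156 and -0.0488 elsewhere. Scgn, a calcium-binding protein, lay at 1.498 on that array and Vstm2b at 1.29. Kcng4, a potassium channel subunit, went the other way with -0.49, and the calcium sensor gene Syt2 stayed at 0.09.

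Markers of other cells also stood apart on the same arrays. On SH-42 replicate 1 the median ratio was 1.03 for amacrine, 1.01 for ganglion cell, 0.535 for rod, 0.297 for cone and 0.301 for horizontal cell genes, and 1.09 for the 10 bipolar cell genes. Lens genes had the highest median of all lists on that array, 1.90 with 10 of 10 positive, and pigment epithelium lay at 0.284. The median was -0.977 for Müller glia, -1.65 for microglia and -2.02 for skeletal muscle. The median Cy5 level of the 9 skeletal muscle genes was 10.93 on SH-42 replicate 1, 10.9 on SH-80 replicate 2 and between 7.34 and 7.56 elsewhere, and their Cy3 median ranged from 7.43 to 7.97. The members lay at a median of 1.09 on SH-42 replicate 1 and of -0.116 on SH-80 replicate 2. The median Cy5 level of the 9 microglia genes was 12.5 on SH-42 replicate 1 and between 9.17 and 10.46 elsewhere, and their Cy3 median ranged from 10.73 to 11. The part of these cells in the members' ratios was not tested.

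On SH-80 replicate 3, where 9 members were lowest, ganglion cell genes had their lowest median as well (-0.413), but rods lay at -0.131 and amacrine cells at -0.0637, against -0.385 for the members. Microglia genes had a median of 1.24 on that array and of 1.101, 0.978 and 0.889 on SH-42 replicate 3 and SH-80 replicates 1 and 2. Lens genes had a median of 3.02 there and of 3.29 on SH-80 replicate 1. The part of microglia and lens in the members' ratios was not tested either.

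**Figure D5:**
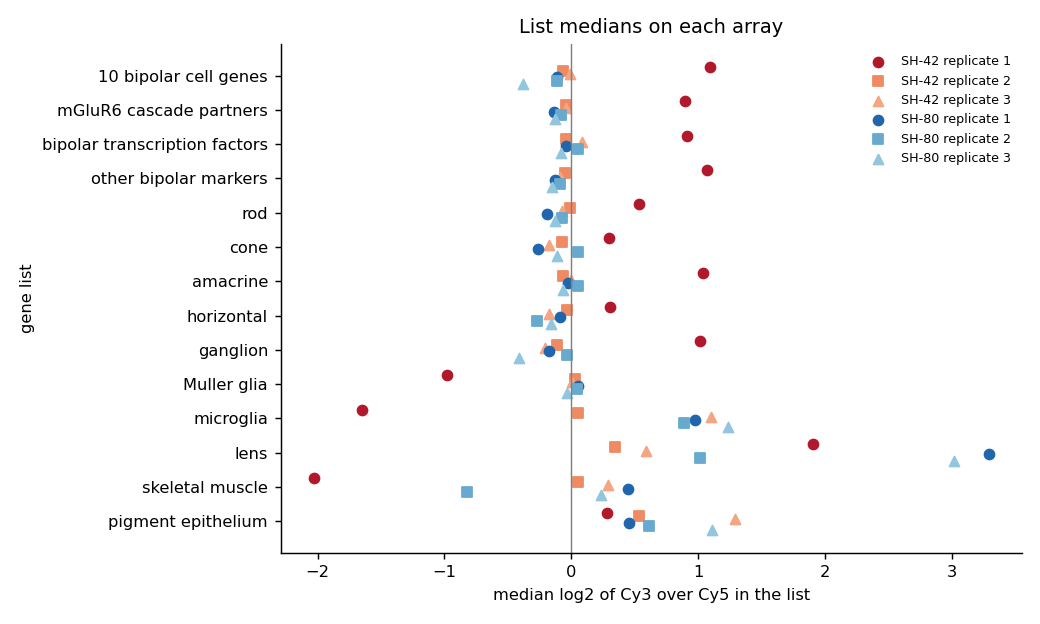
Median log2 of Cy3 over Cy5 (horizontal axis) of the 10 bipolar cell genes and of 13 other gene lists (vertical axis), with 1 point per array. On SH-42 replicate 1 the neuron, lens and pigment epithelium lists lie to the right of 0, lens furthest, and Müller glia, microglia and skeletal muscle to the left.

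The genes most like the members were ranked by Pearson's r between their ratios and the median of the 10 members over the 6 arrays, among 15932 other genes with a symbol. The 8 highest were Add1, Ppp3cb, Pcsk1n, Lrrc4b, Faim2, Cpne7, Tmem25 and Vstm2l, with r from 0.998 to 1 (0.9979 to 0.9995). Faim2 had 1.09 on SH-42 replicate 1 and between -0.13 and 0.17 elsewhere, and Add1 had 0.33 and between -0.18 and -0.05. Of the genes compared, 7.39% had r above 0.95. Over the 5 arrays without SH-42 replicate 1, a setting added after the data were seen, r of these 8 genes was 0.971 to 0.995, and they ranked between 5 and 101 of 15932. Of the 100 genes ranked first with all arrays, 19 were among the first 100 without that array, and 1.43% of genes then had r above 0.95.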

How the data were processed

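Per the file headers, the deposited scanner files hold the intensity of each spot and its local background in Cy3 and Cy5, made by the authors with Feature Extraction 11.0.1.1 (9.3.2.1 per the submitters' processing notes). They also hold a log10 ratio of processed red over green, per the file headers. The deposited series table holds, from its values, log2 of Cy5 over Cy3 plus a constant per array (column medians -0.0754 to -0.0464). Which channel held the treated RNA is given by the labels alone.

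Median intensities of 43020 spots were corrected by normexp (offset 50), normalized by loess within arrays and averaged per probe without flagged spots. Channel levels were taken after Aquantile normalization. Symbols came from the RefSeq table of GRCm38.p6 (66.1% of probes), used for names only. Probes had to be well above background in 1 channel or both on 3 or more arrays (9944 removed), and the brightest per gene was kept. Limma 3.58.1 in R 4.3.3 fitted 1 coefficient per compound over 6 arrays, two-sided, adjusted by Benjamini-Hochberg over 24436 features. No array values were identical between arrays (0 pairs), and the number of arrays limits the precision. P-values measure only the spread between arrays. The fit was tested on simulated data. The members and gene lists were chosen with earlier results of these data known. Named genes are all members, up to 4 per pathway list by smallest p, those passing, and 8 by likeness, except that 1 gene so named is not reported here. Figures used matplotlib 3.10.9. Alternatives covered background correction, dye normalization, value source, probe filter, probe choice, slide, replicate number and each array left out.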

Additional observations from a re-analysis of the deposited data

How the results depend on the processing

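No member passed the threshold for SH-42 or for SH-42 minus SH-80 under the alternatives run, except that with arrays centred without loess 1 of 10 passed for SH-42, namely Cabp5 (-0.63, lower), and 37.8% of all genes. For SH-80 the count of members was 1 with that centring (Rgs11, -0.77, with 15.2% of all genes) and 5 on the SH-80 arrays alone. The slide that holds both compounds repeats that SH-80 result, since its lone SH-42 array adds nothing to the spread. It is therefore no separate check. Leaving out 1 array gave 0 to 7, 7 with SH-42 replicate 1 left out and 0 with any other left out.

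For all genes, limma called 143 for SH-42 (9.09% higher). This became 3235 without background correction (36.6% higher), 3242 with processed signals (31.5% higher), 3804 with the deposited table (29.1% higher), 9234 with centring alone (19.4% higher), 1215 on the slide with both compounds, 78 with the mean of a gene's probes and 4 with scale normalization. It was 0 with offset 0 (5375 unadjusted), on the SH-42 arrays alone (2420) and with slide as a fixed block (5473). Leaving out 1 array gave 0 to 431: 431 with SH-42 replicate 1 left out, 1 with SH-42 replicate 2 left out and 0 with any other left out (3071 to 4567 unadjusted). For SH-80 it called 3595. This became 662 with scale normalization, 2136 with the strict filter on dim probes and 9322 on the SH-80 arrays alone. For SH-80 the slide with both compounds repeats that last fit. It was 0 with slide as a fixed block (3037 unadjusted). Leaving out 1 array gave 0 to 9489: 9489 with SH-42 replicate 1 left out, 2310 with SH-42 replicate 2 left out and 0 with any SH-80 array left out (4740 to 6028 unadjusted). For SH-42 minus SH-80 all alternatives gave 0 (253 to 2619 unadjusted). The cause of these changes was not tested.

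The deviations of arrays with the same replicate number had r = -0.151, -0.43 and 0.181 across genes. These values come from few arrays per compound and cannot decide whether the numbers pair the arrays. With a replicate block the count was 0 for SH-42 (4287 unadjusted), 0 for SH-80 (7287 unadjusted) and 0 for their difference (719 unadjusted), with 0 members called in each.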

Other observations

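The Trpm1 probe of transcript NM_018752, singled out after its values were seen, had its lowest ratios on SH-42 replicate 3 (-1.20) and SH-80 replicate 2 (-1.76). The gene with the most similar ratios over the 6 arrays was Tm9sf1 (Pearson's r = 0.997, among 15942 genes), followed by Foxe3 (0.992) and Crygn (0.991). Tm9sf1 lay at -0.46 and -0.79 on these 2 arrays and between 0.12 and 0.36 on the others. Cryaa, an alpha crystallin gene of the lens and the last of the 12 most alike (0.983), lay at -2.14 and -2.92. Foxe3 lay at -0.80 and -1.07 on the same 2 arrays, and Crygn at -1.92 and -2.61. Pmel (r = 0.988) lay at -0.72 and -1.54, and Pitx3 (r = 0.984) at -1.27 and -1.59. The list of 10 lens genes that holds Cryaa had medians of 0.588 and 1.01 there. On each of the 2 arrays, 6 of its 10 genes were positive. The share of genes with r this high is not given here. Pearson's r is given here as a description, with no test.

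The brightest Trpm1 probe did not show these low values, with -0.02 and -0.15 on the same 2 arrays. What the signal of the NM_018752 probe comes from was not tested.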
